A study of Homo sapiens with 6 samples.

Results

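The HOXC cluster is a run of homeobox genes on human chromosome 12. It was measured here with 104 of the 60596 target probes used on the array, in MDA-MB-231 cells. These were all probes named nc-HOXC, which are non-coding transcripts catalogued between and around the HOXC genes, and all probes named as an exon or intron of a RefSeq transcript of a HOXC gene. The set held 20 exon probes, 11 intron probes and 73 non-coding probes. Exons or introns of 8 of the 9 HOXC genes were covered, and HOXC9 was represented by non-coding probes alone. MDA-MB-231 is an established human breast cancer cell line of mesenchymal character. Cells received PBS as the control, bacterial lipopolysaccharide (LPS), or the cytokines IL1b, TNFa, IL6 or TGFb, each for 24 h. The study's purpose was a screen for long non-coding RNAs under inflammatory stimulation. No dose is given in the sources used here. RNA of each treatment was read on 1 single-colour Cy3 array. There was thus no replicate against which to check a difference, no test could be made, and 6 arrays in all set the precision.

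HOX genes encode homeodomain transcription factors that give cells their position along the body axis. Their order on the chromosome follows the order in which they are used from head to tail, and the pattern is kept in adult cells and in many cell lines. In the HOXC cluster HOXC13 lies at the end used in posterior tissues and in hair follicles, and HOXC4 lies at the anterior end. Many non-coding RNAs are made between HOX genes, some of them antisense to a HOX gene. An intron probe reads unspliced or intron-derived RNA, or RNA of another transcript that covers the same bases. An exon probe reads spliced and unspliced RNA together. Whether the HOXC intron and non-coding probes overlap exons of other transcripts was not determined here.

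HOXC4, HOXC5 and HOXC6 start at the same base in the gene table of RefSeq (GRCh38.p14), since each has a long transcript from a common upstream promoter. The sequence table used here holds this window under the names HOXC4 and HOXC5. The 250 bases before the shared start, chr12:54016638-54016887 on the plus strand, are shown because exons and introns of all 3 genes lie downstream of them and gave different values on these arrays. Capitals mark the only match to the motifs searched.

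HOXC4 and HOXC5 shared upstream window: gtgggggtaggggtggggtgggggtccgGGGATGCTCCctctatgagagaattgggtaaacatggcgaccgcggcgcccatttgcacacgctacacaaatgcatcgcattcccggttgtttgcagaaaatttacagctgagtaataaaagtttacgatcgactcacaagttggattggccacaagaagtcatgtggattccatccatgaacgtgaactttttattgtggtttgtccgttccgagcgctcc

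The capitals are a match to the NF-kB consensus, which begins 222 bases before the start. Of 35116 windows of 250 bases upstream of RefSeq genes, 9.96% hold such a match on either strand. The STAT motif TTCNNNGAA, the SMAD motif CAGAC and the motif TGATNNAT bound by HOX and PBX proteins were not present on either strand, beside 6.57%, 38.0% and 6.47% of the same windows. A match is a description of the letters and not of a bound site.

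Levels are log2 intensities after quantile normalization over the 6 arrays. A probe was counted as measured on an array when the scanner software called it well above background there. These calls were not equally strict on all arrays. Spots without a human target, the negative controls, passed the call at a rate of 0.5% on the PBS array and of 1.83% to 2.33% with LPS, IL1b and TNFa, but of 12.8% with IL6 and 11.2% with TGFb. The 99th percentile of negative control signal lay at normalized log2 values of 6.30 with PBS, 6.14 after LPS, 5.60 after IL1b, 5.93 after TNFa, 6.71 after IL6 and 6.48 after TGFb. Values under these limits are within the range of spots with no target. Values near 3 are an array's lowest signal, which 42 of the 104 HOXC probes shared on the PBS array (3.14), and have no order among themselves. Probes differ in how brightly they report the same amount of RNA, so a level was compared across arrays for the same probe, and probes were compared with each other only by whether they were measured and by their differences between arrays. None of the 19 marker genes chosen for the cell line and for other cell types was named on a probe, so the identity of the cells was not checked here.

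Along the cluster, RNA was measured from HOXC12 to HOXC4 but hardly at the HOXC13 end. On the PBS array 38 of the 104 HOXC probes were well above background, 36.5%, beside 33.2% of all target probes. None of the 4 HOXC13 probes was among them, and 1 of the 6 HOXC12 probes was. Inward from there the counts were 6 of 14 at HOXC11, 5 of 16 at HOXC10, 5 of 11 at HOXC9, 5 of 11 at HOXC8, 9 of 22 at HOXC6, 3 of 8 at HOXC5 and 4 of 12 at HOXC4. With the 99th percentile of negative control spots as the limit, the PBS counts were 0 of 4 at HOXC13 and 2 of 6 at HOXC12, and 44 of 104 in all. Both ways of counting left HOXC13, a regulator of hair keratin genes, without a measured probe under PBS. By the software's looser call of a positive and significant signal, 2 of the 4 HOXC13 probes passed with PBS. That call passed 62 of the 104 HOXC probes and 33718 of the 60596 target probes.

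The 3 classes were counted separately. With PBS, 8 of 20 exon probes, 29 of 73 non-coding probes and 1 of 11 intron probes were well above background. By the negative control limit the PBS counts were 8 exon, 33 non-coding and 3 intron probes, or 40.0%, 45.2% and 27.3% of each class, beside 36.9% of all target probes. The classes were not tested against each other. On all 6 arrays, 7 exon probes, 29 non-coding probes and 1 intron probe were measured, 37 in all. That is 35.6% of the HOXC probes, beside 31.5% of all target probes. No array measured 7 of the 11 introns, 19 of the 73 non-coding probes and 2 of the 20 exons, in all 26.9% of the HOXC probes beside 27.8% of all target probes. The intron share measured on all arrays was 9.09% in HOXC and 18.4% over the 38 intron probes of the other HOX clusters, a difference of few probes that was not tested.

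**Figure D1:**
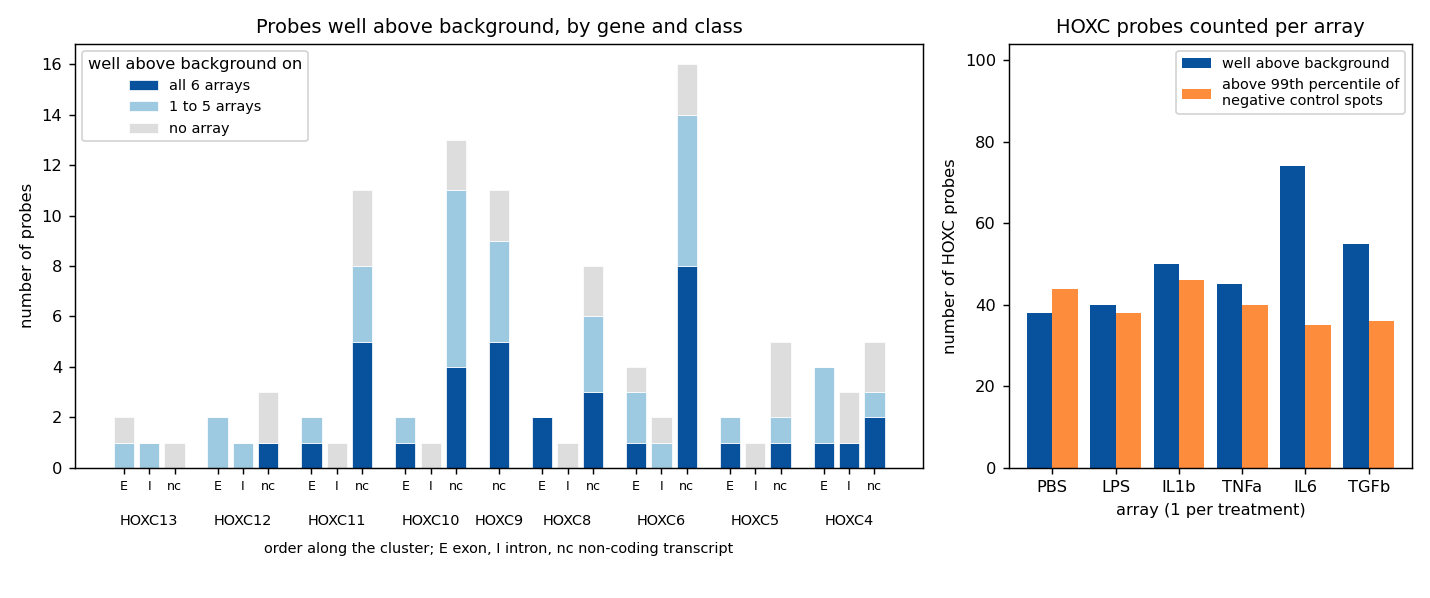
Left, number of HOXC probes (y axis) by gene in chromosomal order and by class (E exon, I intron, nc non-coding), coloured by whether they were well above background on all 6 arrays, on 1 to 5 or on none. Right, number of the 104 probes counted on each array by the scanner's call and by the 99th percentile of negative control spots; the IL6 array goes from 74 to 35 and the PBS array from 38 to 44.

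More HOXC probes were called on the IL6 and TGFb arrays than on the others, as were more probes of the whole array. The call gave 38 probes with PBS, 40 after LPS, 50 after IL1b, 45 after TNFa, 74 after IL6 and 55 after TGFb. As shares these are 36.5%, 38.5%, 48.1%, 43.3%, 71.2% and 52.9%, beside 33.2%, 40.7%, 49.0%, 43.5%, 68.4% and 56.3% of all target probes. The stricter limit of the 99th percentile of negative control spots gave 44, 38, 46, 40, 35 and 36 in the same order. As shares these are 42.3%, 36.5%, 44.2%, 38.5%, 33.7% and 34.6%, beside 36.9%, 38.5%, 44.3%, 40.7%, 32.8% and 35.1% of all target probes. IL6 and TGFb were thus highest by the first count and lowest by the second, in HOXC and over all target probes alike. Of the 104 probes, 26 were called on the IL6 or TGFb array and on no other, beside 20.8% of all target probes. Of these 26, 2 were above the negative control limit where they were called, beside 699 of 12593 over all target probes. The 2 HOXC probes are described below.

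Of the 4 exon probes of HOXC13 and HOXC12, 3 were called on the IL6 array and none on any other. HOXC13 exon 1 lay at 4.41 there and HOXC12 exons 1 and 2 at 4.02 and 5.68, all under the negative control limit of 6.71. With PBS, HOXC13 exon 1 lay higher, at 6.15, but was not called and was under the limit of that array (6.30). The intron of HOXC12 was called on 4 arrays, at 5.65 after IL1b, 5.78 after TNFa, 6.72 after IL6 and 6.31 after TGFb. It was not called with PBS (6.31) or LPS (5.87). At this end of the cluster only nc-HOXC12-104 was measured on every array. It lay at 6.90 with PBS, 6.60 after LPS, 6.52 after IL1b, 6.58 after TNFa, 6.87 after IL6 and 6.87 after TGFb. Its range of 0.38 was the smallest of the 37 HOXC probes measured on all arrays.

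HOXC11, a posterior gene used in the hindlimb, gave discordant exons. Exon 1 was measured on all arrays, at 6.71 with PBS, 6.51 after LPS, 6.01 after IL1b, 6.07 after TNFa, 7.24 after IL6 and 7.13 after TGFb. Every treated array stayed within 2-fold of PBS. The IL6 difference of 0.53 was 1.03, over 2-fold, with the 75th percentile of probes measured on all arrays as the scaling. Exon 2 was called only with IL1b, at 7.22, and with IL6, at 3.97, and was not well above background with PBS (3.14), LPS (4.45), TNFa (5.18) or TGFb (2.94). The IL1b value was above the negative control limit of 5.60 and the IL6 value was not. Against the lowest value called on the PBS array (4.54), exon 2 was at least 6.41-fold higher with IL1b. That value is under the PBS negative control limit of 6.30, against which the fold is smaller. Exon 1 of the same gene differed by -0.70 on the log2 scale between IL1b and PBS. The intron of HOXC11 was not called on any array.

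HOXC10, another hindlimb gene that also specifies motor neurons, was measured through exon 1 alone on every array. It lay at 8.42 with PBS, 8.04 after LPS, 7.64 after IL1b, 7.73 after TNFa, 6.74 after IL6 and 5.85 after TGFb. With PBS it was highest and with TGFb lowest. The TGFb value lay under the negative control limit of that array (6.48), and PBS was at least 3.84-fold above that limit. The difference of -2.57 on the log2 scale was -1.85 with the 75th percentile of probes measured on all arrays as the scaling. With IL6 the value was 3.21-fold lower than PBS and stood at the limit (6.71). Exon 2 was called only with IL6, at 4.45.

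HOXC8, which patterns the thoracic skeleton and its cartilage, was the only HOXC gene with both exons measured on all 6 arrays, and they differed from each other. Exon 1 lay at 8.44 with PBS, 8.08 after LPS, 7.91 after IL1b, 7.90 after TNFa, 7.68 after IL6 and 9.61 after TGFb. Exon 2 lay at 7.79, 7.65, 7.17, 7.06, 5.34 and 5.58 in the same order. The 2 exons were alike with LPS, IL1b and TNFa, where their differences from PBS were within 0.22 of each other. With TGFb exon 1 was 2.24-fold higher than PBS, a difference of 1.16 that was 0.90 with the 75th percentile of all target probes as the scaling, under 2-fold. Exon 1 differed by -0.76 after IL6 and was above the negative control limit on both arrays. Exon 2 was under that limit on both, so its folds are given only to the limit: PBS stood at least 2.11-fold above it for IL6 and at least 2.49-fold for TGFb. The intron was not called on any array.

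HOXC6, a gene used in the thoracic region of the embryo, had probes for 2 RefSeq transcripts. Exon 2 of NM_004503 was measured throughout, at 9.79 with PBS, 8.80 after LPS, 8.70 after IL1b, 8.35 after TNFa, 7.66 after IL6 and 7.86 after TGFb. PBS was highest, and the differences from it ran from -0.99 after LPS to -2.13 after IL6. All 6 values were above the negative control limits. Exon 1 of NM_153693, the other transcript, was not called with PBS (3.14) or LPS (5.38) and lay at 5.50 after IL1b, 5.77 after TNFa, 6.11 after IL6 and 5.32 after TGFb. Each of those calls was under the negative control limit of its array. Exon 1 of NM_004503 was called with IL6 (5.47) and TGFb (4.87), also under the limits, and exon 2 of NM_153693 was not called on any array.

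The exons of HOXC5 and HOXC4 that were measured throughout, at the anterior end, lay within 2-fold of PBS with IL6 and TGFb. HOXC5 exon 1 lay at 7.50 with PBS, 7.05 after LPS, 6.91 after IL1b, 6.68 after TNFa, 7.60 after IL6 and 7.40 after TGFb. Its range of 0.92 included no 2-fold difference from PBS. HOXC5 exon 2 was called with PBS (6.72), IL1b (5.72), IL6 (6.17) and TGFb (6.12), and not with LPS (5.53) or TNFa (5.33). The PBS value stood at least 2.27-fold above the lowest value called with TNFa (5.54). That lowest value is under the TNFa negative control limit of 5.93, against which the fold is smaller. HOXC4, which in B cells acts on the gene for the antibody-diversifying deaminase AID, was read by exon 2 at 11.66 with PBS, 10.38 after LPS, 10.23 after IL1b, 10.11 after TNFa, 11.31 after IL6 and 11.12 after TGFb. The values with LPS, IL1b and TNFa were each lower than those on the other 3 arrays. These are different treatments with 1 array each, and how many target probes divide the arrays in this way was not counted. Exon 2 was 2.42-fold lower than PBS with LPS, 2.69-fold with IL1b and 2.92-fold with TNFa. The other 3 HOXC4 exons were called only with IL6 or TGFb, at values under the negative control limits.

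HOXC4 intron 3 was the exception among introns. It lay at 14.11 with PBS, 13.61 after LPS, 13.34 after IL1b, 13.80 after TNFa, 14.61 after IL6 and 14.59 after TGFb. No treated array differed from PBS by 2-fold, the largest difference being -0.77 after IL1b. Introns 1 and 2 of the same transcript were not called on any array. In RefSeq HOXC5 and HOXC6 lie within the span of HOXC4, and which transcripts the intron 3 probe reads was not determined. The arrays low for exon 2 were also the lower ones for intron 3, but the intron's difference from PBS with IL6 and TGFb, 0.50 and 0.48, turned to -0.22 and -0.34 with the 75th percentile of all target probes as the scaling. The differences of intron 3 from PBS with LPS (-0.50), IL1b (-0.77) and TNFa (-0.31) were smaller than those of exon 2. The intron of the HOXC6 transcript NM_153693 was called with IL1b (6.07), TNFa (5.70) and IL6 (4.10) and not with PBS, where it lay at 6.60. The intron of HOXC13 was called after IL6 (4.98) and not with PBS, where it lay higher, at 5.73. Apart from these and the HOXC12 intron, no intron was called.

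**Figure D2:**
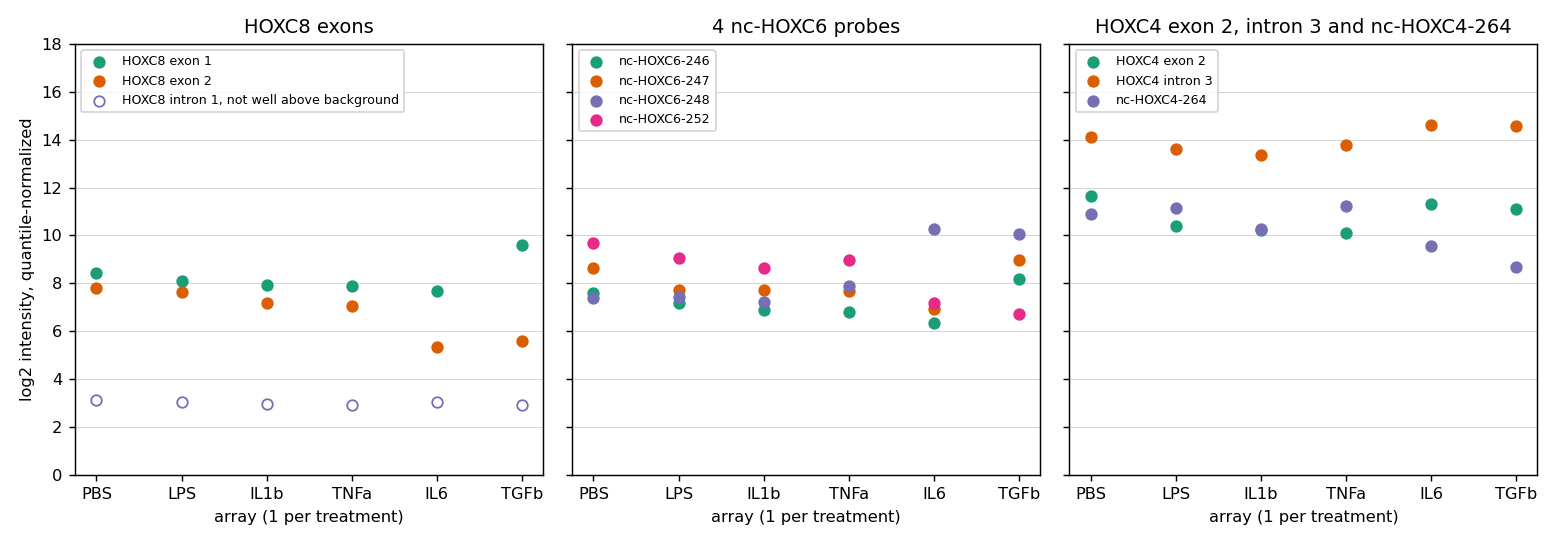
Quantile-normalized log2 intensity (y axis) of single probes on the 6 arrays (x axis, 1 array per treatment); filled points were well above background and open points were not. HOXC8 exon 1 is highest with TGFb (9.61) while exon 2 is lowest with IL6 (5.34) and TGFb (5.58), and HOXC4 intron 3 stays between 13.34 and 14.61.

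Non-coding probes measured on all arrays were spread over the cluster, with 8 named for HOXC6, 5 for HOXC11, 5 for HOXC9, 4 for HOXC10, 3 for HOXC8, 2 for HOXC4, and 1 each for HOXC5 and HOXC12. The steadiest of them, after nc-HOXC12-104, were nc-HOXC5-254 and nc-HOXC9-137. The probe nc-HOXC5-254 lay at 13.14 with PBS, 12.68 after LPS, 12.56 after IL1b, 12.62 after TNFa, 12.95 after IL6 and 13.21 after TGFb. For nc-HOXC9-137 the values were 14.94, 14.30, 14.18, 14.18, 14.30 and 14.45. Both varied over the 6 arrays by less than 2-fold, by 0.66 and 0.76 on the log2 scale. Among the HOXC5 non-coding probes detection differed, as nc-HOXC5-254 was bright on every array, while nc-HOXC5-253, nc-HOXC5-256 and nc-HOXC5-257, chosen after their values were seen, were called on none.

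LPS acts through TLR4, and IL1b and TNFa act through their own receptors, and all 3 routes reach NF-kB. None of the 37 HOXC probes measured on all arrays differed by 2-fold in any pair of the 3, beside 2.32% of all target probes measured on all arrays, a share of under 1 probe in 37. With cyclic loess in place of quantile normalization the count was 1. The median range over the 3 arrays was 0.35, beside 0.29 for all target probes, and the largest was 0.97. With no replicate of any treatment, how alike repeat arrays would be is not known.

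Against PBS, the HOXC probes were mostly somewhat lower with these 3 stimuli. With LPS none of 37 probes measured on both arrays was at least 2-fold higher, beside a background of 6.87% of all target probes, and 3 were at least 2-fold lower, beside 5.22%. With IL1b the counts were 0 higher, beside 9.43%, and 9 lower of 38, beside 9.62%. With TNFa they were 0 higher, beside 9.06%, and 3 lower of 37, beside 8.92%. The 9 of 38 after IL1b is 23.7%, and the 3 of 37 with LPS and with TNFa is 8.11%. The 3 comparisons share the single PBS array. In bulk RNA, fewer cells that make a transcript and less of it per cell cannot be told apart.

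The median difference of the HOXC probes was -0.48 after LPS, -0.73 after IL1b and -0.62 after TNFa, beside -0.15, -0.24 and -0.21 for all target probes measured on both arrays. Below PBS were 35 of 37 HOXC probes with LPS, 38 of 38 after IL1b and 33 of 37 after TNFa. Over all target probes measured on both arrays, 11358 of 19539, 11918 of 19852 and 11849 of 19624 were below PBS in the same order. The other HOX clusters gave medians of -0.64 to -0.70 after LPS, -0.75 to -0.80 after IL1b and -0.65 to -0.73 after TNFa, so the direction was not peculiar to HOXC. Exon and non-coding probes of HOXC had like medians, -0.74 and -0.72 after IL1b, -0.38 and -0.53 after LPS, and -0.73 and -0.58 after TNFa.

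With LPS and TNFa the lower HOXC probes were all named for HOXC4 or HOXC6, and with IL1b HOXC10 and HOXC11 each added 1. HOXC4 exon 2 was the lowest against PBS with each of the 3 stimuli. The non-coding probe nc-HOXC6-243 lay at 8.56 with PBS, 7.38 after LPS, 7.46 after IL1b, 7.44 after TNFa, 8.82 after IL6 and 8.78 after TGFb. The LPS, IL1b and TNFa arrays were thus 2.26-fold, 2.15-fold and 2.18-fold lower than PBS, and IL6 and TGFb lay beside PBS. The probe nc-HOXC6-240 lay at 10.63 with PBS, 9.44 after LPS, 9.32 after IL1b, 10.21 after TNFa, 11.73 after IL6 and 11.35 after TGFb. It was at least 2-fold lower with LPS and IL1b but not with TNFa. HOXC6 exon 2 passed 2-fold with IL1b (2.13-fold lower) and TNFa (2.71-fold lower). With IL1b, nc-HOXC10-117 (2.19-fold), nc-HOXC6-238 (2.17-fold) and nc-HOXC11-111 (2.14-fold) were also lower, as were nc-HOXC6-252 (2.04-fold) and nc-HOXC6-244 (2.03-fold).

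Called with TNFa and not with PBS, at a bound of 2-fold or more, were HOXC6 exon 1 of NM_153693 and nc-HOXC4-153. The exon stood at least 2.34-fold above the lowest value called with PBS (4.54), which is under the PBS negative control limit (6.30). The probe nc-HOXC4-153 was called with IL1b (5.61), TNFa (7.44) and IL6 (4.32), and not with PBS (6.43), LPS (5.86) or TGFb (3.36). TNFa was the highest array, at least 2.01-fold above PBS. Under PBS the probe lay above the negative control limit (6.30) although it was not called, so the distance to PBS depends on which limit is used. Another probe of this gene, nc-HOXC4-264, was higher with TNFa (11.25) and LPS (11.14) than with PBS (10.88), by less than 2-fold, and lay at 10.27 after IL1b, 9.56 after IL6 and 8.68 after TGFb.

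**Figure D3:**
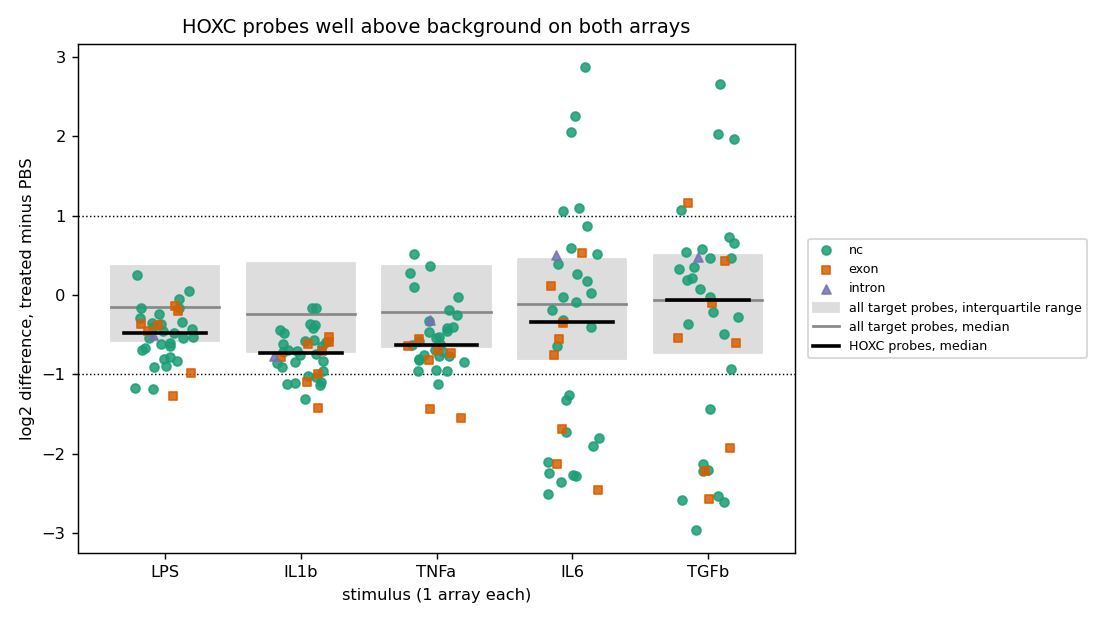
Log2 difference of each HOXC probe from PBS (y axis) for the 5 stimuli, over probes well above background on both arrays; squares are exons, triangles introns and circles non-coding probes, and dotted lines mark 2-fold. The HOXC medians (black) are below the median of all target probes (grey line, interquartile range shaded) with LPS, IL1b and TNFa, while with IL6 and TGFb the probes fall into higher and lower sets.

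IL6 signals through STAT3 and TGFb through SMAD proteins. On these arrays HOXC probes divided into some clearly higher and others clearly lower than PBS. With IL6, 5 of 38 probes measured on both arrays were at least 2-fold higher, beside 9.64% of all target probes, and 14 were lower, beside 20.4%. With TGFb, 5 of 38 were higher, beside 10.0%, and 11 were lower, beside 18.9%. As shares of the 38 these are 13.2% and 36.8% with IL6, and 13.2% and 28.9% with TGFb. The split moved when each array was scaled to a 75th percentile. With that of probes measured on all arrays it was 9 higher and 13 lower with IL6, and 10 and 10 after TGFb. With that of all target probes it was 3 and 15, and 3 and 13. The counts over all target probes moved in the same directions. With the first scaling more were higher and fewer lower than PBS, and the reverse held with the second. The median HOXC difference was -0.33 after IL6, beside -0.11 for all target probes, and -0.06 after TGFb, beside -0.06. These medians moved with the setting: over the 2 scalings just named they were -0.23 and -0.71 after IL6 and 0.15 and -0.41 after TGFb, and with both arrays above the negative control limit 0.12 and 0.33.

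The higher set was made of non-coding probes, with HOXC8 exon 1 added on the TGFb array. Most HOXC probes measured on both arrays were non-coding. With IL6, 5 of 29 non-coding and 0 of 8 exon probes were higher, and with TGFb 4 of 29 and 1 of 8. The probe nc-HOXC6-248 lay at 7.39 with PBS, 7.43 after LPS, 7.23 after IL1b, 7.91 after TNFa, 10.26 after IL6 and 10.05 after TGFb. IL6 and TGFb stood above the other 4 arrays by at least 2.14, and were 7.31-fold and 6.32-fold higher than PBS. The probe nc-HOXC11-115 had the same form, at 7.48, 7.32, 7.12, 7.45, 9.74 and 9.51 in the order PBS, LPS, IL1b, TNFa, IL6 and TGFb. The third was nc-HOXC9-139, at 12.74, 12.69, 12.30, 13.02, 14.80 and 14.71 in that order. These 3 were the HOXC probes in which both arrays lay at least 2-fold above each of the other 4, 3 of 37 beside 3.54% of all target probes. With the 75th percentile of probes measured on all arrays as the scaling the HOXC count was 7, and the count over all target probes rose as well. All 3 were above the negative control limits on every array. Also at least 2-fold higher than PBS were nc-HOXC8-143 (2.08-fold) and nc-HOXC6-240 (2.14-fold) with IL6, and nc-HOXC9-132 (2.11-fold) with TGFb.

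The lower set held exons of HOXC10, HOXC8 and HOXC6 and non-coding probes named for HOXC11, HOXC10, HOXC8, HOXC6 and HOXC4. The probe nc-HOXC6-252 lay at 9.67 with PBS, 9.07 after LPS, 8.65 after IL1b, 8.98 after TNFa, 7.17 after IL6 and 6.72 after TGFb. It was 5.68-fold lower than PBS with IL6 and 7.75-fold lower with TGFb, and was above the negative control limits on both arrays. The probe nc-HOXC6-238 lay at 9.88, 9.05, 8.77, 8.93, 7.53 and 7.75 in the same order. It too stayed above the limits, and was 5.11-fold lower with IL6 and 4.38-fold lower with TGFb. In 6 of the 37 probes the IL6 and TGFb values were both lower by 2-fold or more than on every other array, beside 3.61% of all target probes. Besides nc-HOXC6-252 and nc-HOXC6-238 these were HOXC8 exon 2, nc-HOXC4-263, nc-HOXC6-244 and nc-HOXC8-146. That count was 0 with the 75th percentile of probes measured on all arrays as the scaling, and 8 with the 75th percentile of all target probes. Over all target probes the count also fell steeply with the first scaling, and it stayed nearly the same with the second.

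Several of the lower probes were near or within the range of negative control spots on the IL6 and TGFb arrays. The probe nc-HOXC4-263 lay at 7.53 with PBS and at 5.26 after IL6 and 4.92 after TGFb, and nc-HOXC8-146 at 8.93, 6.64 and 6.34. Their IL6 and TGFb values were under the limits of 6.71 and 6.48. When both arrays had to exceed the 99th percentile of their negative control spots, fewer HOXC probes were at least 2-fold lower. The counts were 8 with IL6 in place of 14, and 5 after TGFb in place of 11. The higher counts stayed at 5 and 5. Over all target probes the lower counts also fell with both stimuli and the higher counts rose, so the drop was not peculiar to HOXC. The part of the higher background in the lower HOXC values was not tested.

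**Figure D4:**
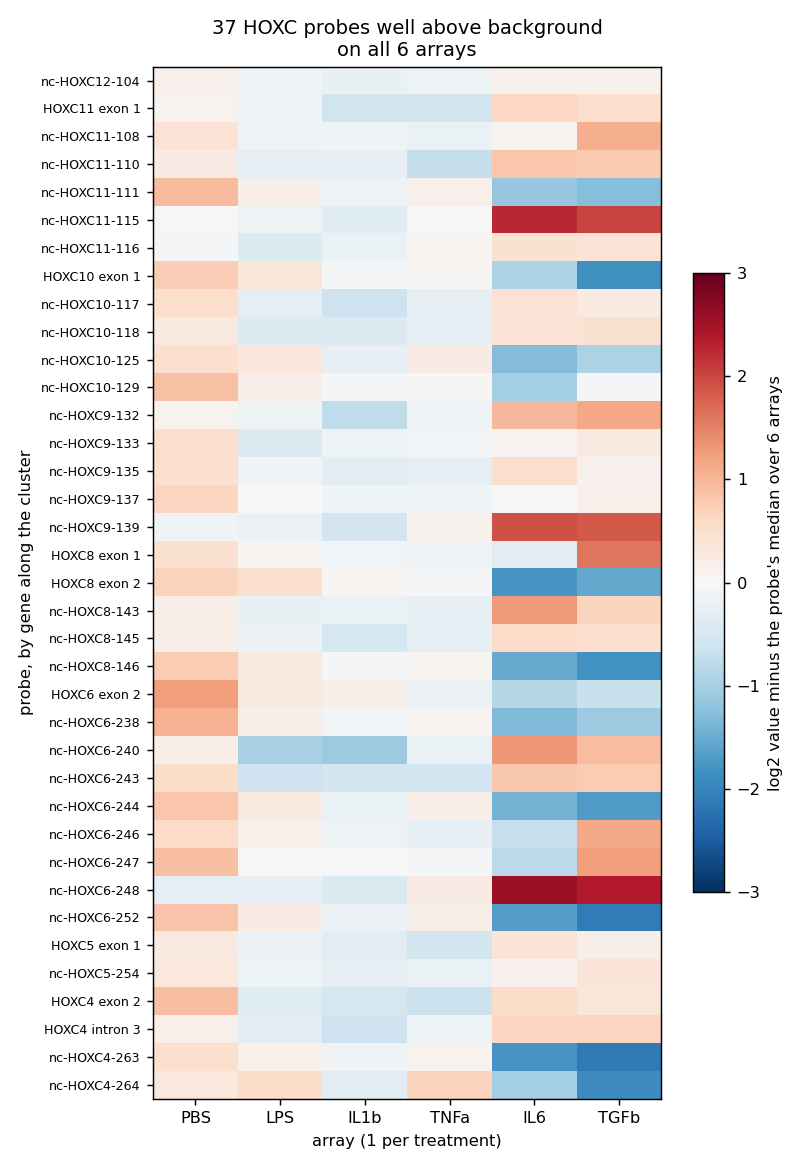
Log2 value of the 37 HOXC probes measured on all 6 arrays (rows, in gene order along the cluster) on each array (columns), minus the probe's own median over the 6 arrays; red is higher and blue is lower. The LPS, IL1b and TNFa columns differ from each other by at most 0.97, whereas nc-HOXC6-248, nc-HOXC11-115 and nc-HOXC9-139 are red with IL6 and TGFb and nc-HOXC6-252 is blue.

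IL6 and TGFb differed by at least 2-fold at 3 of 37 HOXC probes, 8.11%, which is near the 8.48% of all target probes. The count was 5 with the 75th percentile of probes measured on all arrays as the scaling. TGFb was higher in all 3. HOXC8 exon 1 was 1.92 higher with TGFb than with IL6 on the log2 scale. The probe nc-HOXC6-247 lay at 8.63 with PBS, 7.72 after LPS, 7.73 after IL1b, 7.69 after TNFa, 6.91 after IL6 and 8.98 after TGFb, a difference of 2.08 between the last 2 arrays. The probe nc-HOXC6-246 lay at 7.60, 7.19, 6.87, 6.79, 6.34 and 8.18 in the same order, a difference of 1.84. For all 3 probes TGFb was the highest array and IL6 the lowest. HOXC8 exon 1 alone had TGFb at least 2-fold above each of the other 5 arrays, 1 of 37 beside 0.833% of all target probes. The probe nc-HOXC6-246 was under the negative control limit with IL6, and the other 2 were above the limits on both arrays.

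Some HOXC probes were called on a treated array and not with PBS. This held for 3 probes with LPS, 12 after IL1b, 8 after TNFa, 36 after IL6 and 17 after TGFb, of which 1, 8, 3, 5 and 5 were above the negative control limit of the treated array. The shares of 2.88%, 11.5%, 7.69%, 34.6% and 16.3% stood beside 8.44%, 16.3%, 11.1%, 35.4% and 24.1% of all target probes. How many of those target probes were above the negative control limit was not counted. The opposite, a call with PBS alone, held for 1 probe with LPS and 1 after TNFa, HOXC5 exon 2 in both cases; its bound reached 2-fold in 0 of 1 after LPS, beside 50.4% of target probes, and in 1 of 1 after TNFa, beside 99.8%. Some of the probes called under treatment and not with PBS stood at least 2-fold above the lowest value called on the PBS array. These were 0 of 3 after LPS, beside 46.1% of the target probes called with LPS and not with PBS. The counts were 1 of 12 after IL1b, beside 33.5%, and 2 of 8 after TNFa, beside 46.6%. With IL6 they were 6 of 36, beside 19.3%, and with TGFb 6 of 17, beside 29.9%. The clearest was nc-HOXC6-250, which was not called with PBS (3.14), LPS (3.04), IL1b (2.94) or TNFa (3.88) and lay at 6.95 after IL6 and 7.45 after TGFb. It stood at least 5.32-fold and 7.51-fold above the lowest value called with PBS, and above the negative control limits on both arrays. Of the probes called with IL6 or TGFb alone, the other one above its limit was nc-HOXC8-147 after TGFb, at 6.58, which was chosen after its values were seen. Called in the same way but under the limits were nc-HOXC9-142, at 6.40 after IL6 and 6.11 after TGFb, and nc-HOXC10-119, at 6.09 and 5.89. Each such fold was taken against the lowest value called on the PBS array (4.54), or against the probe's own value there when that was higher. The value 4.54 lies under the PBS negative control limit of 6.30, so these folds are not bounds against that limit. The lowest values called with LPS (5.94) and TNFa (5.54), used for HOXC5 exon 2, also lay under the limits of those arrays (6.14 and 5.93).

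Beside the other HOX clusters, HOXC was measured to a like extent. The share of probes measured on all arrays was 35.6% for HOXC, 29.5% for HOXA, 37.6% for HOXB and 23.3% for HOXD. With IL6, the shares of probes at least 2-fold lower than PBS were 36.8% in HOXC, 21.4% in HOXA, 42.9% in HOXB and 38.1% in HOXD. With TGFb they were 28.9%, 21.4%, 43.8% and 21.1%. At least 2-fold higher with TGFb were 5 of 38 HOXC probes, 2 of 28 HOXA probes, 0 of 32 HOXB probes and 1 of 19 HOXD probes, beside 10.0% of all target probes. With IL6 the higher shares were 13.2% in HOXC, 14.3% in HOXA, 8.57% in HOXB and 9.52% in HOXD, beside 9.64%. These differences between clusters rest on few probes of 1 array each and were not tested. All 30 HOX genes of the other clusters had a probe on the array, whereas none of the 9 PBX, MEIS and PKNOX cofactors, the 14 chromatin regulators or the 6 upstream factors listed was named on a probe, and these genes were not analysed here.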

How the data were processed

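Total RNA of MDA-MB-231 cells was measured on 6 one-colour arrays, 1 per treatment, each with 62738 spots. The deposited files are scanner output in Agilent Feature Extraction format, while the labels describe a NimbleGen hybridization and a GenePix scanner, and which is right was not settled. The deposited intensity is the processed signal, per the file headers. The authors' deposited value table holds log2 values, and RMA is the tool listed in the submitters' processing notes; no version is stated there. Control spots were left out, spots of a probe were averaged, and 60596 of 60639 target probes were used. Values were log2-transformed and quantile-normalized (limma 3.58.1, R 4.3.3), and tables and figures were made in Python 3.11.15 with pandas 2.3.3 and matplotlib 3.10.9. The authors' table was within 0.00255 of these values for every HOXC probe well above background; its column medians were 5.07 to 5.08, and the sources used here do not state its centring.

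A probe counted as different when it was well above background on both arrays and differed by at least 2-fold. No test was possible with 1 array per treatment, and the counting was tested on simulated data. Named probes were those measured on all 6 arrays, for each stimulus the 6 each way with the largest 2-fold difference and up to 3 each way called on 1 of both arrays by their bound, the 3 with the smallest range, and any exon or intron where a gene's exons and introns were compared. The members and lists were chosen with earlier results of these data known. Gene names came from RefSeq accessions; 2 accessions, with 6 probes, were not matched to a symbol and not used here.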

Additional observations from a re-analysis of the deposited data

How the results depend on the processing

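With 1 array per treatment there was no replicate to leave out, and no paired analysis was possible because each group had 1 array. Of 188 named differences from PBS, 50 were at least 2-fold, and those kept their sign under the submitters' table, cyclic loess and both 75th percentile scalings. Over all 188 the sign changed in 0, 1, 9 and 8 under these, none of them above 0.60 in size, among them HOXC4 intron 3 with IL6 and TGFb and both HOXC5 exons with TGFb. By 0.217, the spread of the closest pair of arrays, or more, 0, 9, 28 and 68 moved. The scalings moved the median of all target probes with IL6 from -0.11 to -0.41 (75th percentile of all target probes) or 0.07 (75th percentile of probes measured on all arrays), and with TGFb from -0.06 to -0.40 or 0.16. The HOXC median with LPS, IL1b and TNFa stayed below that of all target probes under each of these scalings. Both 75th percentile scalings shift every probe of an array by the same amount, so they cannot differ from each other in this distance. The submitters' values are nearly those used here, so these settings are not separate checks.

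With the 75th percentile of all target probes, 3 HOXC probes were higher than PBS with IL6 and 3 after TGFb, and the medians were -0.71 and -0.41. With the 75th percentile of probes measured on all arrays, 5 were lower with LPS, 5 lower with TNFa, 9 higher with IL6 and 10 higher with TGFb; IL6 and TGFb together stood above the other arrays in 7 probes and below in 0, and 5 differed between them. With cyclic loess 1 probe differed between LPS, IL1b and TNFa. With a floor at the median in place of the detection call, the higher and lower counts were 3 and 11 after LPS, 3 and 19 after IL1b, 4 and 11 after TNFa, 14 and 23 after IL6, and 13 and 22 after TGFb.

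With the median of the other 5 arrays in place of PBS, 2 probes were lower with IL1b, 8 higher with IL6 and 11 higher with TGFb. The medians were then -0.23 after LPS, -0.39 after IL1b, -0.18 after TNFa, 0.27 after IL6 and 0.47 after TGFb, and 42 of the 188 differences changed sign. Of those at least 2-fold 1 did, HOXC6 exon 2 (NM_004503) with IL1b, which turned to 0.34; among the smaller were HOXC6 exon 2 with LPS (0.45) and HOXC4 exon 2 with IL6 (0.93) and TGFb (0.73). Chosen after seeing the data, the 99th percentile of negative control spots as the limit gave 35 probes with IL6 and 36 after TGFb; on both arrays of a comparison it gave 1 higher with TNFa, 8 lower with IL6, 5 lower with TGFb, and medians of 0.12 after IL6 and 0.33 after TGFb. The software's looser call of a positive and significant signal gave 62 probes with PBS and 64 after LPS. The causes were not tested. A background correction from mean and background signals was not run. How far signal near background limits the lower values on the IL6 and TGFb arrays was not tested.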
